A study of Mus musculus with 24 samples.

Results

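The cAMP response genes described here are 9 mouse genes: the transcription factor genes Creb1 and Crem, the coactivator gene Crtc2, the kinase gene Sik1, the phosphodiesterase genes Pde4b and Pde4d, and the nuclear receptor genes Nr4a1, Nr4a2 and Nr4a3. They were chosen by symbol from knowledge of the pathway and not by a rule on measured values. The choice was made with earlier results of these data known. The members are 9 of the 26995 gene symbols in the read count tables. Each gene is represented by the annotated 3′UTR entry with the highest mean total read count over the 24 libraries. All 9 entries passed the filter on low total read counts, and 7 passed it for newly labelled reads. Crem and Crtc2 did not, with 8 and 59 labelled reads summed over the 24 libraries.

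The study followed 3T3-L1 cells, a mouse fibroblast-like line that turns into fat cells in a hormone cocktail, with or without block of sumoylation. Cells in DMSO, the solvent control, or in 0.5 µM ML-792, an inhibitor of the SUMO activating enzyme, were collected at days -2, 1, 3 and 7 around induction, with 3 libraries (A, B and C) for each of the 8 conditions. Before harvest all cells received 100 µM 4-thiouridine for 45 min, so that RNA made in that time carries T-to-C conversions in the reads. Each library therefore gave a total read count and a labelled read count for every entry, the latter from reads with at least 1 such conversion.

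The DMSO day -2 and ML-792 day -2 groups are pre-adipocytes, sampled before the cocktail. The 4 groups of days 1 and 3 followed induction with a medium that held 10 µg/ml insulin, 1 mM dexamethasone (the concentration the methods give) and 0.5 mM isobutylmethylxanthine (IBMX). At day 3 this was replaced with a medium that kept the insulin, so the day 7 groups had been without dexamethasone and IBMX since then. Whether the day 3 cells were taken before or after the change of medium, and how long the day -2 cells had been in ML-792, are not stated in the sources used here. All libraries come from 1 cell line, and the methods describe the 3 libraries of a condition as biological replicates, so the p-values measure the spread between such samples.

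Cyclic AMP is made by adenylyl cyclases and activates protein kinase A, which phosphorylates CREB-family factors bound at cAMP response elements (CREs) of target genes. CRTC coactivators join CREB there, and salt-inducible kinases such as SIK1, itself encoded by a CREB target, hold CRTC proteins in the cytoplasm. PDE4 enzymes hydrolyse cAMP, and IBMX inhibits most phosphodiesterases, which is why it is part of the adipogenic cocktail. NR4A receptors are encoded by immediate early genes whose short-lived mRNAs follow cAMP, serum and stress signals.

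Library depth ran from 13554718 to 27013352 total reads, and 115709 to 820046 reads per library were labelled. Cell type markers followed the labelled stages. The summed normalised total read count of 7 markers (Adipoq, Fabp4, Plin1, Cidec, Lep, Cd36 and Pparg) was 1686 to 2681 at DMSO day -2 and 325764 to 367093 at DMSO day 7. All 7 rose between these days, and all 6 pre-adipocyte or fibroblast markers fell, their sum going from 282878 to 344555 down to 25260 to 37891. Over all 24 libraries, the macrophage markers Ptprc, Adgre1, Csf1r and Cd68 had 0, 12, 384 and 1200 reads, with a normalised sum of 25.5 to 145.8 per library. Of the 2 tested, Cd68 rose between DMSO days 1 and 3 (log2 1.55 ± 0.39), and Csf1r fell from day -2 to day 7 (-5.53 ± 1.33) and was higher in ML-792 at day 7 (3.81 ± 1.33, adjusted p = 0.0926). The endothelial markers Cdh5, Kdr and Pecam1 had 6, 13 and 164 reads. Libraries B stood apart within each condition: the chi-square per degree of freedom between libraries A and C was 11.5 to 33.1 and the lowest of the pairs in all 8 conditions, against 40.6 to 101.9 for pairs with B. In a bulk culture, fewer cells of a kind and less RNA per cell cannot be told apart, and the part of the cell mixture in the member values below was not tested. Normalised read counts are reads scaled to the mean library size with TMM factors, and they were not compared between genes.

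In DMSO, the members did not move together. Between days -2 and 1, Pde4b and Pde4d rose and Nr4a1 fell at an adjusted p under 0.01 in edgeR's quasi-likelihood test, against 6.99% of 13331 tested genes higher and 9.86% lower. Between days 1 and 3, 3 members fell (Nr4a2, Pde4d and Sik1) and 0 rose, against 11.9% lower and 11.3% higher among all genes. Between days 3 and 7, 4 members fell (Nr4a1, Nr4a3, Pde4b and Pde4d) and 0 rose, where 4.34% of genes fell and 6.54% rose. From day -2 to day 7, 4 members fell (Nr4a1, Nr4a2, Nr4a3 and Sik1) and Crem rose, against 19.4% and 18.9% of genes. These comparisons share libraries, so the counts are not independent of each other.

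**Figure D1:**
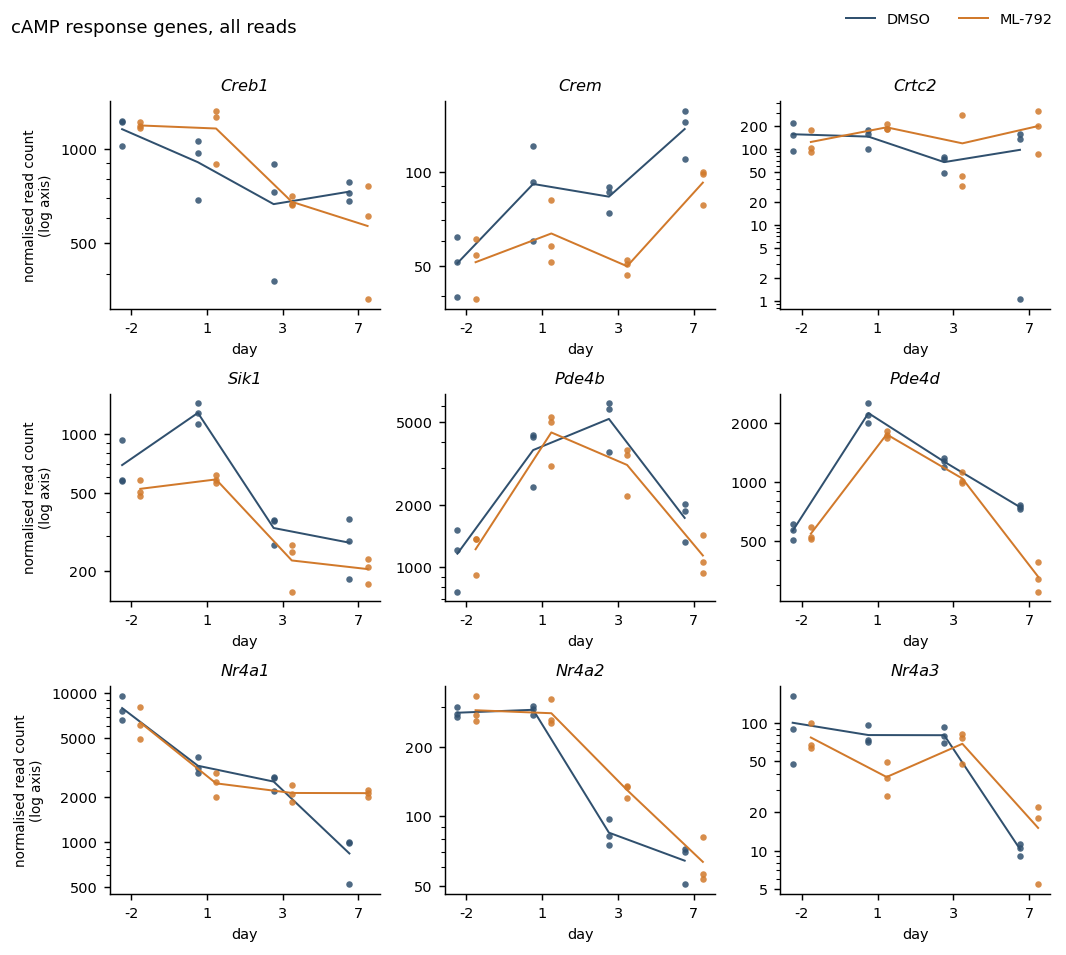
Normalised total read count (log axis) of the 9 members by day (evenly spaced) in DMSO and ML-792, with each library as a point and the mean of 3 libraries as a line. Pde4b and Pde4d peaked at days 3 and 1 in DMSO, Nr4a1 was highest at day -2, and at day 7 the ML-792 libraries lay above DMSO for Nr4a1 and below it for Pde4d.

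Creb1, the constitutive CRE-binding activator, had its entry at chr1:64597379-64604548 (mm10, plus strand, the 3′UTR of NM_001037726.1). Its normalised total read count was 1221, 1231 and 1022 in the DMSO day -2 libraries A, B and C, and 971, 689 and 1064 at day 1. At day 3 it was 894, 728 and 378, and at day 7 680, 788 and 725. Every day 7 library lay below every day -2 library, but the log2 difference of -0.66 ± 0.25 (SE) did not pass the threshold (adjusted p = 0.0459). No other Creb1 difference in total reads passed, and its highest and lowest condition means (ML-792 day -2 and ML-792 day 7) were 2.10-fold apart.

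Crem encodes activating forms and, from an internal promoter, the inducible repressor ICER. Its entry lies on the minus strand of chromosome 18 and held 78.2% of the reads of the gene's non-overlapping entries. Crem stood at 51.5, 61.7 and 40.0 normalised reads at DMSO day -2, at 92.9, 121 and 60.2 at day 1, and at 86.4, 89.3 and 74.1 at day 3. At day 7 it was 144, 156 and 110, above every day -2 library. The rise from day -2 to day 7 was 2.68-fold (log2 1.42 ± 0.31, adjusted p = 0.00143), although without libraries A the adjusted p was 0.0492. The separate steps did not pass (log2 0.84 ± 0.31, adjusted p = 0.0633 for day 1 against day -2, and 0.72 ± 0.30, adjusted p = 0.132 for day 7 against day 3), and Crem was the single member called higher at day 7 than at day -2.

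Crtc2, the CREB coactivator controlled by SIK kinases, was measured at chr3:90263701-90264125, a short entry of 425 bases with large spread. DMSO values were 155, 221 and 93.3 at day -2, 180.2, 98.4 and 157 at day 1, and 48.2, 74.2 and 78.7 at day 3. At day 7 libraries A and C stood at 134 and 156, while library B held 1 read. No Crtc2 comparison passed, but without libraries B the difference of day 3 from day 1 did (log2 -1.41, adjusted p = 0.00391).

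Sik1, the kinase that restrains CRTC coactivators, was transiently high after induction. Its entry at chr17:31844250-31846282 (minus strand) gave 581, 925 and 572 normalised reads at DMSO day -2 and 1281, 1431 and 1124 at day 1. The 2 groups did not overlap, but the log2 difference of 0.88 ± 0.25 missed the threshold (adjusted p = 0.0182). By day 3 the values were 269, 365 and 358, a log2 change of -1.95 ± 0.26 from day 1 (adjusted p = 3.44e-05), and at day 7 they were 284, 182.5 and 368. Over the whole course Sik1 fell 2.49-fold (log2 -1.32 ± 0.26, adjusted p = 0.000602, and 0.0123 without libraries A), all day 7 libraries lying below all day -2 libraries.

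Both PDE4 genes, whose products degrade cAMP, rose after induction in the IBMX-containing medium. Pde4d (chr13:109951345-109955969) went from 570, 508 and 612 at day -2 to 2193, 2504 and 1999 at day 1, a 3.96-fold rise (log2 1.99 ± 0.16, adjusted p = 3.56e-07). It then fell to 1274, 1195 and 1325 at day 3 (log2 -0.82 ± 0.15, adjusted p = 0.000703) and to 727, 743 and 762 at day 7 (-0.77 ± 0.15, adjusted p = 0.00263). No groups overlapped at any of these steps, and the day 7 libraries were still above those of day -2, though not past the threshold (0.40 ± 0.15, adjusted p = 0.0447). Both falls missed the threshold without libraries A or without libraries C (adjusted p 0.0122 to 0.147).

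Pde4b (chr4:102605340-102607262) rose 3.15-fold over the same interval, from 1209, 764 and 1519 to 4324, 2442 and 4250 (log2 1.66 ± 0.29, adjusted p = 0.000677, and 0.0406 without libraries A). Its mean did not drop at day 3 as that of Pde4d did: the values were 6170, 3579 and 5817, with a log2 difference of 0.50 from day 1 that did not pass. It fell by 1.58 ± 0.29 on the log2 scale between days 3 and 7 (adjusted p = 0.00145), to 1860, 1320 and 2011. This fall was lost without libraries A (adjusted p = 0.0628) or C (0.0221), and library B was the lowest of each condition. The day 7 level was not called against day -2 (0.57 ± 0.29, adjusted p = 0.122), but it was higher without libraries B (0.51, adjusted p = 0.00631).

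**Figure D2:**
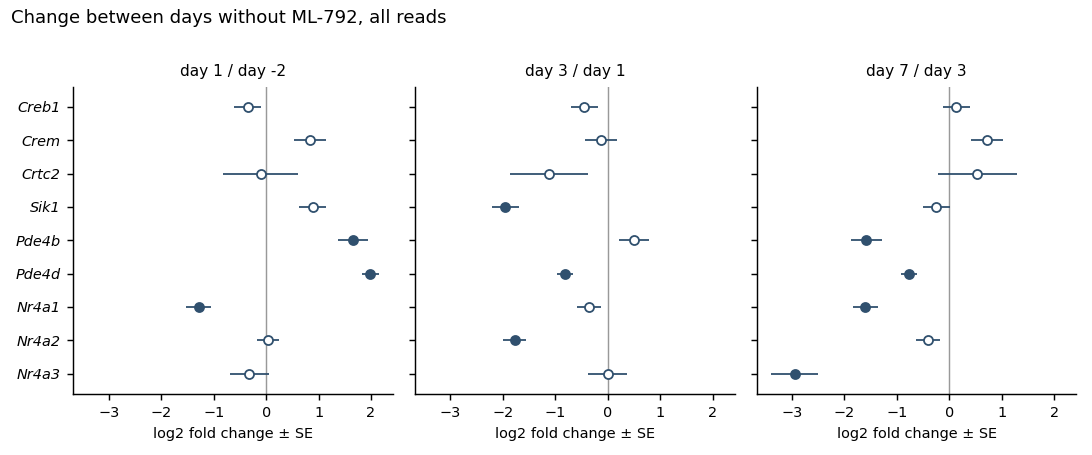
Log2 fold change (± SE) of total reads of the 9 members in DMSO at each step (day 1 against -2, 3 against 1 and 7 against 3), with filled points for an edgeR adjusted p under 0.01. The 2 filled points above 0 are Pde4b (1.66) and Pde4d (1.99) at day 1, and all filled points of the later steps lie below 0.

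The NR4A receptor genes went down at different times. Nr4a1 (chr15:101274253-101274795) was highest in pre-adipocytes, at 9649, 6611 and 7670 normalised reads, and was already at 2926, 3714 and 3166 at day 1. The fall of 1.29 ± 0.23 on the log2 scale (adjusted p = 0.000864) was lost without libraries A (adjusted p = 0.0701) or C (0.025). Day 3 values were 2209, 2708 and 2758, and day 7 values of 995, 524 and 1005 lay below all of these (log2 -1.60 ± 0.24, adjusted p = 0.000246, and 0.0106 without libraries C). From day -2 to day 7 Nr4a1 fell 9.48-fold (log2 -3.25 ± 0.25, adjusted p = 4.89e-08).

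Nr4a2 was flat over the first step, with 277, 300 and 269 reads at day -2 and 293, 302 and 276 at day 1. Its drop came between days 1 and 3, to 97.4, 82.3 and 75.2 (log2 -1.77 ± 0.22, adjusted p = 1.66e-05), and day 7 stood at 50.8, 69.9 and 72.0. The entry, chr2:57106830-57108412 on the minus strand, held 98.3% of the reads of its non-overlapping entries, and the overall fall was 4.38-fold (log2 -2.13 ± 0.22, adjusted p = 1.26e-06).

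Nr4a3 (chr4:48083353-48086447) varied most between pre-adipocyte libraries, at 164, 47.4 and 90.6 reads, and stayed in that range at day 1 (70.8, 96.6 and 74.2) and day 3 (78.8, 69.55 and 92.6). At day 7 it was almost lost, at 11.3, 10.4 and 9.14 reads. This was 7.73-fold below day 3 (log2 -2.95 ± 0.45, adjusted p = 0.000292, but 0.0104 without libraries A and 0.0202 without C) and 9.68-fold below day -2 (-3.28 ± 0.45, adjusted p = 2.04e-05).

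Promoter sequences were searched for the short CRE core, written TGACG on one strand and CGTCA on the other, with a full palindrome TGACGTCA counted as both. The RefSeq promoter table (GRCm38.p6) holds windows of 300 bases, from 250 before to 50 after each start, and 6 members are in it, while Crem, Sik1 and Crtc2 are not. Each NR4A gene had 4 matches, a number reached by 0.231% of all 32851 promoters, of which 20.8% had at least 1. The matches began 233, 213, 69 and 40 bases before the start of Nr4a1, 200, 144, 123 and 111 before that of Nr4a2, and 231, 213, 205 and 147 before that of Nr4a3. Pde4b had 1 match in 1 of its 4 promoters, 34 bases before the start, and Creb1 and Pde4d had none in these windows. The palindrome, present in 1.79% of promoters, was in none of the 6. The windows below, of 30 bases each in the direction of transcription, show for each of these genes the stretch with the most matches, since they are the members with a match and all 4 changed in total reads. Capitals mark the core letters. They are chr15:101266610-101266639 (plus strand) for Nr4a1, chr2:57124104-57124133 (minus) for Nr4a2, chr4:48045083-48045112 (plus) for Nr4a3 and chr4:102421508-102421537 (plus) for Pde4b. A match describes letters and not binding.
Nr4a1: ctgCGTCAatggaaccccgcgtgCGTCAcg
Nr4a2: gccgggcTGACGgggccgcTGACGcgcttg
Nr4a3: gtcccatgtCGTCAcatTGACGtctcgcat
Pde4b: tgatttggctgcaCGTCAattttctcatct

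Among the members, Nr4a3 and Nr4a1 had the highest shares of newly labelled reads in pre-adipocytes. Of the Nr4a1 reads, 21.8% ± 2.09 (SD, n = 3) were labelled at DMSO day -2, and of the Nr4a3 reads 34.1% ± 11.8, where the library as a whole had 3.17% ± 0.485. The same share was 11.0% ± 0.716 for Sik1, 10.8% ± 1.32 for Pde4b, 10.1% ± 3.00 for Pde4d, 5.38% ± 1.63 for Nr4a2, 4.76% ± 0.799 for Creb1 and 3.89% ± 1.98 for Crtc2. For Crem, with 1 labelled read in the group, the share was 0.483% ± 0.837, below that of the whole library. A share also depends on how many T bases the reads cover, so the order between genes is descriptive only.

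At DMSO day 1 the mean share was lower in all 9 members, as it was in the whole library (1.27% ± 0.0798). With the reads of all non-overlapping entries summed, this held for 8 of the 9. For Crem the lower mean share rests on 1 labelled read, in library B, at either day (0.483% at day -2 and 0.251% at day 1). Nr4a1 stood at 6.15% ± 0.602, Nr4a3 at 5.15% ± 2.28, Pde4b at 5.21% ± 0.652, Sik1 at 3.72% ± 0.110 and Pde4d at 2.98% ± 0.234. At day 7 the Nr4a1 share was up again, at 11.2, 10.2 and 9.43% in libraries A, B and C, while its total count was then at its lowest. Its labelled reads did not rise with the share. They were 109, 131 and 194 at day 3 and 99, 51 and 83 at day 7 (log2 -0.93 ± 0.32, edgeR adjusted p = 0.193, not called). Nr4a3 had 8 to 10 total reads per library at day 7, too few for a share.

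**Figure D3:**
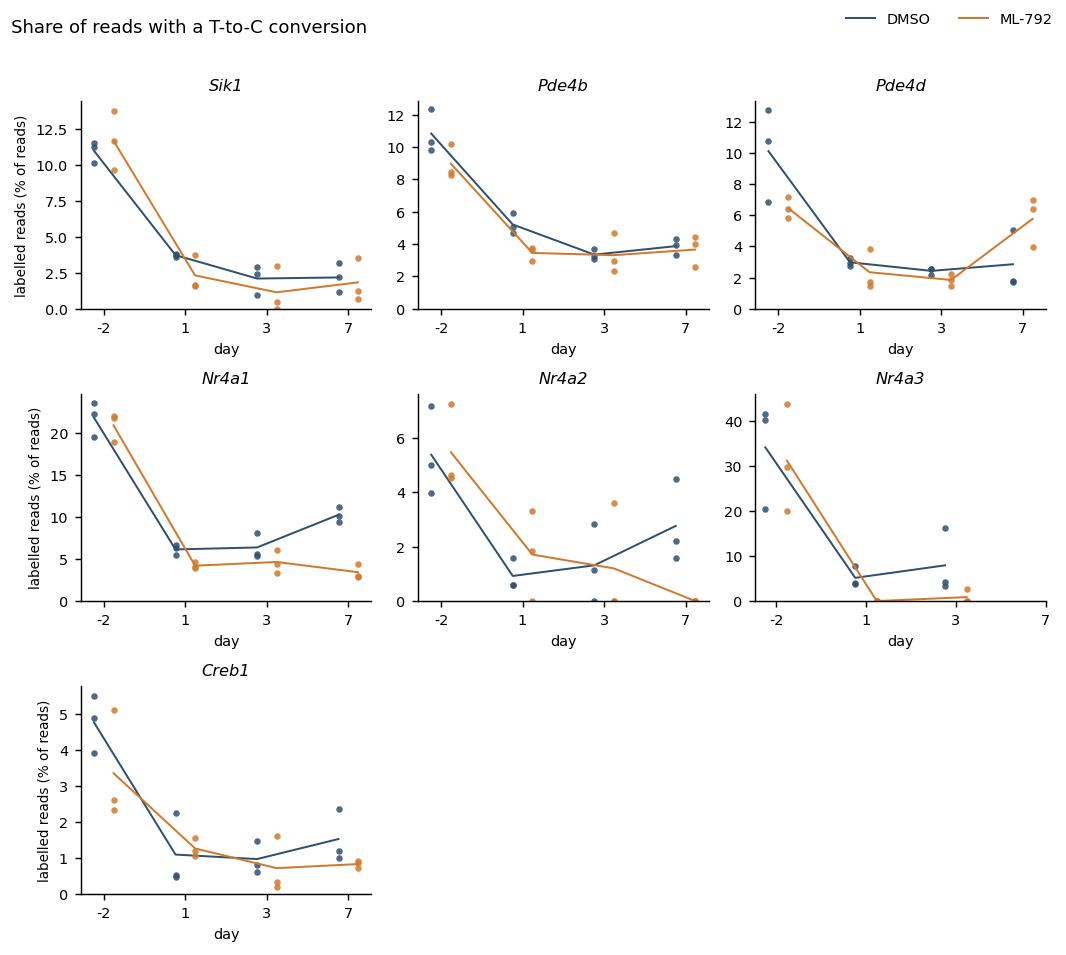
Labelled reads as a percent of all reads of the entry, by day (evenly spaced) in DMSO and ML-792. Shown are the 7 members that passed the filter for labelled reads, with each library as a point and group means as lines. Day -2 shares exceed those of day 1 for each gene, and at day 7 the Nr4a1 share is 10.3% in DMSO and 3.43% in ML-792.

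Labelled reads, scaled by the library size of the total reads, were lower at day 1 than at day -2 across the genome, with a median log2 fold change of -1.20 over 6434 tested genes. Of the 7 members tested, 3 were called lower and 0 higher, against 18.9% of genes lower. Scaled instead by the labelled reads of each library, 1 was lower (Nr4a1) and 1 higher (Pde4b), so directions here are relative to that shift. The 18.9% belongs to the first scaling, and the share of all genes called under the other scaling is not given here.

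Nr4a1 had 2305, 1747 and 1928 labelled reads at day -2 and 174, 259 and 254 at day 1, an 8.52-fold fall (log2 -3.09 ± 0.33, adjusted p = 1.27e-10). It remained called when scaled by labelled reads (-1.83). Nr4a3 went from 41, 22 and 41 labelled reads to 3, 4 and 7 (-2.83 ± 0.79, adjusted p = 0.00458), and Creb1 from 82, 67 and 45 to 5, 4 and 29 (-2.34 ± 0.60, adjusted p = 0.00236). Neither of these 2 calls held when scaled by labelled reads (Nr4a3 -1.58, adjusted p = 0.252, and Creb1 -1.15, adjusted p = 0.24). Both were also lost without libraries A (adjusted p = 0.1 and 0.103), that of Nr4a3 without libraries C (0.0391) and that of Creb1 without libraries B (0.0136), and without libraries C the Creb1 difference was -3.91.

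No fall was called for the PDE4 genes. Pde4b had 153, 84 and 211 labelled reads at day -2 and 219, 159 and 260 at day 1 (log2 0.53 ± 0.37, not called), and scaled by labelled reads the difference was 1.81 and was called. Pde4d had 75, 39 and 88 labelled reads before and 77, 81 and 67 after (0.20 ± 0.44, not called). For Sik1, with 80, 105 and 74 before and 53, 59 and 49 after, the difference was -0.65 ± 0.46 and turned to 0.56 when scaled by labelled reads, neither of them called.

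**Figure D4:**
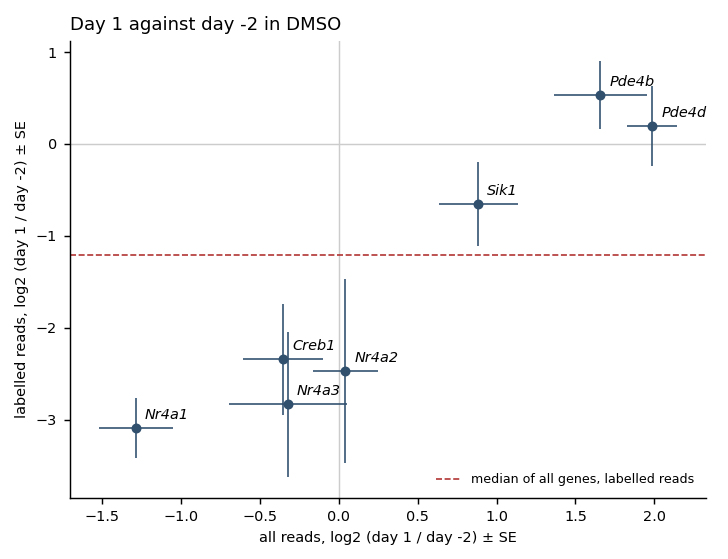
Log2 fold change (± SE) at DMSO day 1 against day -2 for the 7 members in labelled reads (scaled by library size) and in total reads, with a dashed line at the median of all tested genes in labelled reads. Nr4a1 lies below that median and below 0 in total reads, and Pde4b and Pde4d lie above both.

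Later labelled changes were few. Between days 1 and 3, 1 of the 7 members fell, against 2.00% of genes: Sik1 went from 53, 59 and 49 to 6, 9 and 3 labelled reads (log2 -2.78 ± 0.55, adjusted p = 0.000363), and the call was lost without libraries A (0.0205) or C (0.0241). Between days 3 and 7, edgeR called 0 members (0.326% of genes) and DESeq2 0, with 3 members at an unadjusted p under 0.05. The share of all genes at that unadjusted level is not given here. Pde4b came nearest, with 209, 94 and 165 labelled reads at day 3 and 71, 50 and 59 at day 7 (-1.40 ± 0.38, adjusted p = 0.0669), and it was called when scaled by labelled reads (-1.50).

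From day -2 to day 7, 4 of the 7 were called lower (Creb1, Nr4a1, Nr4a3 and Sik1), against 28.1% of genes and a median of -1.47. Nr4a1 ended at 99, 51 and 83 labelled reads, 19.9-fold lower (log2 -4.31 ± 0.35, adjusted p = 7.84e-15). Sik1 ended at 8, 2 and 7 (-3.55 ± 0.55, adjusted p = 9.82e-07), and Nr4a3 at 0, 2 and 0 against 41, 22 and 41 (adjusted p = 5.56e-05). Creb1, with 6, 9 and 15, lost its call without libraries A (adjusted p = 0.0634) and when scaled by labelled reads (0.33), and under that scaling Pde4b and Pde4d, neither of them called, turned from below 0 to 0.48 and 0.04.

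ML-792 was compared with DMSO at each day at an adjusted p under 0.1. In pre-adipocytes no member passed, with 0 at an unadjusted p under 0.05, and over all genes edgeR called 0% and DESeq2 called 0, with 184 of 13331 genes at an unadjusted p under 0.05 in edgeR. At day 1, 1 member was lower (Sik1) against 4.31% of genes. At day 3, 1 was higher (Nr4a2) against 8.42%. At day 7, Nr4a1 was higher, against 6.03% of genes, and Pde4d lower, against 5.58%. The treatment difference varied over the days for 2 members, Nr4a1 (F-test of 3 interaction terms, adjusted p = 0.000948) and Pde4d (0.00215), where 11.9% of genes passed.

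**Figure D5:**
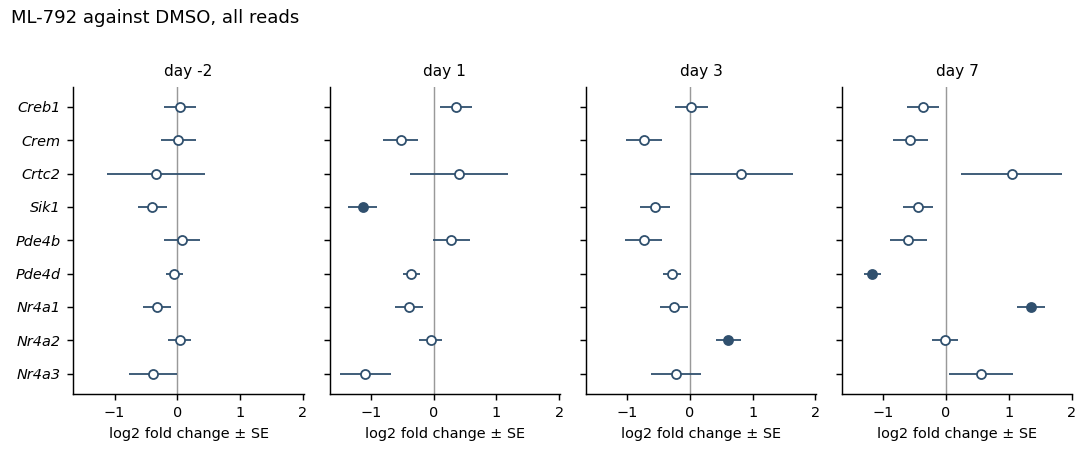
Log2 fold change (± SE) of total reads, ML-792 against DMSO, for the 9 members at days -2, 1, 3 and 7, with filled points for an edgeR adjusted p under 0.1. Filled points are Sik1 at day 1 (-1.13), Nr4a2 at day 3 (0.61), and Nr4a1 (1.35) and Pde4d (-1.17) at day 7.

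Sik1 stood lower in ML-792 at day 1. The treated libraries gave 617, 558 and 580 normalised reads, and 584, 481 and 506 at day -2, where the DMSO day 1 libraries stood at 1281, 1431 and 1124. Sik1 was 2.18-fold lower (log2 -1.13 ± 0.23, adjusted p = 0.00315, and 0.104 without libraries A). At days 3 and 7 the differences were -0.55 ± 0.24 and -0.45 ± 0.24, with adjusted p of 0.177 and 0.343 (0.0469 at day 7 without libraries B), and the change of the difference over days did not pass. Adipocyte markers moved at day 1 too: 3 of 7 were higher and 0 lower, with a sum of 5267 to 7109 against 3730 to 5675 in DMSO, and their part in the Sik1 difference was not tested.

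Nr4a2 stood at 135, 120.3 and 135 in ML-792 at day 3, all above the DMSO values of 97.4, 82.3 and 75.2. This 1.53-fold difference (log2 0.61 ± 0.20, adjusted p = 0.0565) was the least firm of the calls: it was lost under a lower count filter (adjusted p = 0.118), without a filter (0.36), without libraries A (0.239) or C (0.471), and with the 6 libraries of day 3 alone (0.27). By day 7 the treated libraries, at 56.0, 81.1 and 53.3, overlapped with DMSO. Adipocyte markers at day 3 had 2 of 7 genes higher and 1 lower in ML-792, with a sum of 244173 to 286168 against 150287 to 251348, and their part in the Nr4a2 difference was not tested.

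Nr4a1 was higher in ML-792 at day 7. Treated libraries gave 2137, 2030 and 2249 normalised reads against 995, 524 and 1005 in DMSO, a 2.54-fold difference (log2 1.35 ± 0.22, adjusted p = 0.000284). The treated day 7 mean of 2139 ± 110 (SD, n = 3) was close to the treated day 3 mean of 2145 ± 285, the interval over which DMSO cells fell from 2558 ± 303 to 841 ± 275. At the earlier days treated means were below DMSO, with 2524, 2023 and 2923 at day 1 (log2 -0.39 ± 0.22, adjusted p = 0.436).

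The labelled share of Nr4a1 went the other way from its total count. In ML-792 at day 7 it was 2.95, 4.44 and 2.91%, below the 11.2, 10.2 and 9.43% of DMSO. The labelled reads themselves, 53, 70 and 48 against 99, 51 and 83, overlapped between treatments (log2 -0.25 ± 0.30, adjusted p = 0.786, and 0.12 when scaled by labelled reads). The whole-library share was 0.837% ± 0.0310 in treated and 1.03% ± 0.0869 in DMSO cells at that day.

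Pde4d was 2.26-fold lower in ML-792 at day 7, at 391, 277 and 321 against 727, 743 and 762 (log2 -1.17 ± 0.14, adjusted p = 4.21e-06). The treated day 7 libraries also lay below the treated pre-adipocyte libraries (515, 592 and 527). Every treated library was also below every DMSO library at day 1 (1814, 1735 and 1674, log2 -0.36 ± 0.14, adjusted p = 0.169) and at day 3 (1009, 1127 and 981, -0.28 ± 0.14, adjusted p = 0.247), and neither difference passed. Labelled Pde4d reads at day 7 were 13, 15 and 15 against 11, 36 and 12 (-0.21 ± 0.48, adjusted p = 0.907), and the sign turned without libraries B (0.45). The interaction of Pde4d was lost without libraries A (adjusted p = 0.125) or C (0.158).

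At day 7 the treated cultures differed in cell type markers as well. Of the adipocyte markers 4 of 7 were higher and 0 lower, with a sum of 534609 to 581712 against 325764 to 367093, and of the pre-adipocyte markers 3 of 6 were higher and 1 lower, with a sum of 44621 to 63701 against 25260 to 37891. Their part in the Nr4a1 and Pde4d differences was not tested.

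Pde4b and Crem had lower means in ML-792 at days 3 and 7, with no call in the edgeR fit used for the reported calls. Other fits of all libraries did call them. With the library letter as a block in the model, Pde4b passed at days 3 and 7 and in the interaction, and Crem at day 3. Pde4b stood at 3482, 2201 and 3658 at day 3 against 6170, 3579 and 5817, overlapping by 1 library (log2 -0.74 ± 0.29, adjusted p = 0.13), and passed in DESeq2 (0.0924), without a filter (0.0084) and without libraries B (0.000694). At day 7 it stood at 1058, 938 and 1426 against 1860, 1320 and 2011 (-0.60 ± 0.29, adjusted p = 0.28), again overlapping, and passed without a filter (0.0764) and without libraries B (-0.64, adjusted p = 0.00482). Its interaction (adjusted p = 0.296) also passed without a filter (0.0118) and without libraries B (0.00215). Crem stood at 46.7, 50.7 and 52.4 against 86.4, 89.3 and 74.1, with no overlap (-0.74 ± 0.29, adjusted p = 0.123), and passed with its non-overlapping entries summed (-0.89, adjusted p = 0.0247). At day 7 Crem was again lower in every treated library, at 100.1, 78.5 and 98.3 (-0.57 ± 0.28, adjusted p = 0.283). The Crem mean was lower at day 1 too, at 63.5 against 91.4 in DMSO, with overlap (-0.53 ± 0.28, edgeR adjusted p = 0.406).

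Nr4a3 was low at day 1 in ML-792, at 49.2, 26.8 and 37.3 against 70.8, 96.6 and 74.2, with no overlap (log2 -1.09 ± 0.40, adjusted p = 0.154). None of its 109 reads there was labelled, which allows a share of up to 2.75%, while 14 were labelled in the DMSO group. Against a floor of 3 reads over the group, the labelled count was at least 3.94-fold lower, a limit that covers counting error only. At day 3 it had 1 labelled read in all of ML-792, where DMSO had 3, 2 and 13.

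Labelled reads gave no member call for ML-792 in edgeR at any day, against 1.06% of genes called at day 1, 1.12% at day 3 and 0.964% at day 7, nor for the interaction (0.280% of genes). At an unadjusted p under 0.05 there were 3 members at day 1, 3 at day 3, 1 at day 7 and 1 in the interaction. The share of all genes at that unadjusted level is not given here, so these counts are not set against it. DESeq2 called 2, both at day 1: Sik1, with 9, 8 and 23 labelled reads against 53, 59 and 49 (edgeR log2 -1.79 ± 0.52, adjusted p = 0.107, DESeq2 0.0186), and Nr4a1, with 94, 70 and 145 against 174, 259 and 254 (edgeR -0.93 ± 0.29, adjusted p = 0.137, DESeq2 0.0791). Both genes had lower labelled reads in every treated library than in any DMSO library of that day. The share of all genes that DESeq2 called at that day is not given here.

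The rest of the pathway was followed through lists of related genes. Of 15 tested genes of cAMP synthesis and its effectors, 1 rose and 3 fell in total reads between DMSO days -2 and 1, and 4 rose and 5 fell from day -2 to day 7, beside the 6.99% and 9.86% of all genes at day 1 and the 18.9% and 19.4% at day 7. The adenylyl cyclase genes Adcy5 (log2 5.86 ± 1.29, adjusted p = 0.00497) and Adcy7 (-6.34 ± 0.89, adjusted p = 9.46e-05) moved apart by day 1. Of 11 other phosphodiesterase genes, 4 rose and 2 fell by day 1, against those same 6.99% and 9.86%. Pde3a and Pde1b were highest among them in size of change, at 4.90 up and 4.83 down in log2, and by day 7 Pde3b, the insulin-regulated enzyme of fat cells, was up by 5.78 ± 0.27.

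Sik2 and Sik3, the other SIK genes, rose by day 1 (log2 2.01 ± 0.17 and 0.95 ± 0.19) and were up at day 7 too (2.60 and 0.93), while Sik1 ended lower. They were the 2 of 8 tested CREB partner and SIK genes called at day 1 (6.99% of all genes were higher), and the coactivator genes Crtc1 and Crtc3 were not called in DMSO at any step. In ML-792, Sik3 was lower than in DMSO at day 1 (-0.80 ± 0.17, adjusted p = 0.00378) and day 3 (-0.65 ± 0.17, adjusted p = 0.0121), the single call of this list at either day.

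Known CREB target genes other than the members divided. Of 18 tested, 4 rose and 9 fell in total reads by day 1 (median log2 -1.05, against 0.0035 for all genes), and 3 rose and 11 fell by day 7 (median -2.003, against -0.015). Among all genes 6.99% rose and 9.86% fell by day 1, and 18.9% and 19.4% by day 7. The immediate early genes Fos (-3.95 ± 0.27) and Fosb (-3.43 ± 0.50) fell with Nr4a1 at day 1, and Dio2, which encodes a thyroid hormone activating enzyme, rose (3.28 ± 0.67). Pck1, a gluconeogenic and glyceroneogenic gene that also marks fat cells, rose by 7.20 ± 0.56 between days 1 and 3. In labelled reads, 1 of 16 rose and 11 fell by day 1 (0.560% and 18.9% of all genes), with a median of -2.94 against -1.20 for all genes, and scaled by labelled reads 1 rose and 9 fell. The shares of all genes under that scaling are not given here.

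In ML-792 the same targets went both ways: of 18, 2 were higher and 2 lower at day 1, 4 and 4 at day 3, and 5 and 5 at day 7, and 11 passed the interaction. Over all genes, 3.72% were higher and 4.31% lower at day 1, 8.42% and 6.97% at day 3, and 6.03% and 5.58% at day 7, and 11.9% passed the interaction. Rgs2, a regulator of G-protein signalling, was lower at day 1 (-1.49 ± 0.17) and day 3 (-2.46 ± 0.17), Ppargc1a was higher at those days (1.85 ± 0.26 and 1.90 ± 0.25), and Dio2 was higher at days 3 and 7 (3.07 ± 0.59 and 4.15 ± 0.94). Among phosphodiesterase genes, Pde11a was higher at days 3 and 7 (4.28 ± 0.59 and 4.78 ± 0.61), and Pde3b was lower at day 7 (-0.77). The labelled reads of Rgs2 were lower at day 1 (-1.82), day 3 (-2.53) and day 7 (-1.82). Fos was higher at day 1 in labelled reads (1.22 ± 0.34) and in total reads (1.00 ± 0.29). Of the 16 targets tested in labelled reads, 1 was called higher and 2 lower at day 1, where 1.06% of all genes were called. At day 7, 0 were higher and 4 lower (0.964% of all genes called). At day 3, 6 were called lower and 0 higher (0.699% of all genes lower), also when scaled by labelled reads, for which the share of all genes is not given.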

How the data were processed

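Per the study's methods, the authors mapped 3′ end reads (QuantSeq) to mm10 with SlamDunk and counted, over RefSeq 3′UTR entries, all reads and reads with at least 1 T-to-C conversion. The submitters' processing notes also name bcl2fastq 2.17.1.14. The deposited tables hold raw counts for 91830 entries, and overlapping entries count a read more than once. Each table has 6 library columns that match no sample and were not used. The 9 members and all gene lists were chosen with earlier results of these data known.

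For each symbol, the entry with the highest mean total count stood for the gene. Entries that passed edgeR's filterByExpr (minimum count 10, minimum total 15) were tested with the quasi-likelihood test of edgeR 4.0.16 (limma 3.58.1, R 4.3.3), with TMM scaling of the total counts also used for labelled counts. A prior count of 2 was added only for the log2 normalised counts behind the correlations between libraries and between genes. The fitted log2 fold changes did not use it. The SE given with an edgeR log2 fold change was calculated as its absolute value divided by the square root of the F statistic. The day comparisons used the 12 DMSO libraries, called at an adjusted p under 0.01, and the ML-792 comparisons all 24, called under 0.1. Adjustment (Benjamini-Hochberg) ran over all tested entries. Scripts were tested on simulated data. A labelled share was given from 20 reads upward, a minimum chosen after seeing the data. Named genes of the lists are, per comparison, up to 3 called genes with the highest absolute change, and Crtc1 and Crtc3 were named after their values were seen. The 1st percentile of the labelled share, over entries with at least 1000 reads, was 0 to 0.332% per library. Alternatives were DESeq2 1.42.0, other filters, 1 entry per gene, summed entries, other library sets, the replicate letter as a block, scaling by labelled reads and leaving out each library letter. Figures were drawn in Python 3.11.15 with matplotlib 3.10.9.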

Additional observations from a re-analysis of the deposited data

Results flagged for a closer look

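The ML-792 difference in total reads varied over the 4 days for 2 members by the test of the interaction itself (edgeR quasi-likelihood F-test, all 24 libraries). For Nr4a1 the adjusted p was 0.000948, with log2 differences from DMSO of -0.32, -0.39, -0.25 and 1.35 at days -2, 1, 3 and 7. For Pde4d it was 0.00215, with differences of -0.05, -0.36, -0.28 and -1.17 at the same days.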

How the results depend on the processing

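Of 654 alternative values computed for 60 member results, 572 kept their direction and their side of the threshold, 42 gained a call, 32 lost one and 8 reversed. The 60 were those called, those of a day or ML-792 comparison at an unadjusted p under 0.05, and some chosen labelled comparisons. Results not called that stayed so count as kept. Other member results also gained calls, such as Pde4b for ML-792 at day 7, and are not among the 42. Leaving out a library letter in turn gave 7 to 18 member calls in the DMSO time course (total reads, 15 as reported), 4 to 10 in its labelled reads (8), 2 to 9 for ML-792 in total reads (4), 0 to 3 for ML-792 in labelled reads (0) and 1 to 3 for the interaction (2). DESeq2 gave 8 calls for ML-792 in total reads and 2 in labelled reads. The share of all genes called under each alternative is not set beside these counts or those that follow. They show how the member calls depend on the setting, and not a gain or loss relative to other genes. With 1 entry per gene, with non-overlapping entries summed, and with only the 6 libraries of a day, there was 1 call each for ML-792 in labelled reads. The sources do not say that a replicate letter marks a shared batch, and not every pair of same-letter libraries deviated together: in total reads 68 of 84 pairs had r over 0.1 (mean 0.191, and -0.0939 between letters), and in labelled reads 22 of 84 (mean 0.0708). As a hint from the data, 22 of 24 libraries, all 8 B libraries among them, correlated best with their own letter. With the letter as a replicate block there were 10 calls for ML-792 in total reads and 3 in labelled reads. The block added calls of Pde4b for ML-792 at day 3 (adjusted p = 2.24e-05) and day 7 (0.000656), for the interaction (3.02e-05), for day 3 against 1 (0.00327) and for day 7 against -2 (0.000586), and of Nr4a3 (0.0416) and Pde4d (0.0602) at day 1 and Crem (0.0666) and Sik1 (0.0965) at day 3 for ML-792. In labelled reads, scaling by labelled reads reversed Sik1 at day 1 against -2 (0.56), Pde4b (0.48) and Pde4d (0.038) at day 7 against -2, and ML-792 at day 7 for Nr4a1 (0.12) and Pde4d (0.10), none of them called. Leaving out a letter in turn, labelled Pde4d ran from -0.15 (without B) to 0.58 at day 1 against -2 and from -0.53 to 0.45 (without B) for ML-792 at day 7, and labelled Nr4a1 from -0.68 to 0.075 (without A) for ML-792 at day 7. The calls of Nr4a1 and Pde4d for ML-792 at day 7 in total reads held under all alternatives run. Sik1 at DMSO day 1 in total reads, not called as reported, passed in DESeq2 (adjusted p = 0.00565), without a filter (0.00149), with the block (0.00956), without libraries B (0.000481) and with all 24 libraries in the fit (0.00543). The causes of these shifts were not tested. Labelled reads of Crem, Crtc2, Nr4a2 and Nr4a3 were too few for most comparisons at this depth.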

Other observations

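For each member, the tested genes with at least 100 mean reads were ranked by Pearson's r of their mean log2 normalised total read count over the 8 conditions, a description with no test, since 9250 genes were compared over 8 points that share libraries. The 3 most alike were Med23 (0.986), Fancf (0.984) and Cyr61 (0.977) for Nr4a1, Ifitm3 (0.995), Man1a2 (0.992) and Amot (0.990) for Nr4a2, and Sub1 (0.990), Haghl (0.976) and Rpain (0.970) for Nr4a3. They were Med4 (0.985), Zcchc8 (0.980) and Fosl1 (0.975) for Pde4d, Nup62 (0.975), Diexf (0.970) and Pcmt1 (0.969) for Pde4b, and Glce (0.992), C430049B03Rik (0.981) and Sipa1l2 (0.976) for Sik1. For Creb1 they were Gabpb1 (0.981), N4bp1 (0.979) and Tgfbi (0.977), for Crem Pigm (0.971), Cradd (0.970) and Erlin1 (0.965), and for Crtc2, the member with the widest spread between libraries, Hnrnpf (0.940), Cnep1r1 (0.926) and Senp3 (0.910). Crem and Nr4a3 had fewer than 100 mean reads, so they could not be listed as alike to another member. None of the other members was among the 3 genes most alike to another member.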
